A study of Bos taurus with 15 samples.

Results

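OOSP2 (ENSBTAG00000027348), oocyte secreted protein 2, is described here across 15 single bovine oocytes from dominant follicles (DF). It is 1 row of the 21218 genes in the deposited count table, and its symbol was taken from the study's own pairing of Ensembl identifiers with symbols. The gene was chosen by its share of all counts in these oocytes, its rank among genes, and how both lay over the time points and over the oocytes that the study kept or did not keep. Its levels are therefore given as a description, with no test.

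The oocytes came from synchronised, crossbred nulliparous beef heifers, 1 oocyte from each of 15 animals. Group T1, with 6 oocytes, was taken 24 h ahead of ovulation, group T2, with 4, at 19-23 h from the detection of oestrus, and group T3, with 5, at 2 h ahead of ovulation. Oocytes are named by group and number, as T1.1. All animals had received a GnRH analogue, a progesterone device and prostaglandin. The methods give a further dose of GnRH to a subgroup, named beside the time of T3, and do not say plainly whether T2 animals were in it. The T1 animals were slaughtered a day before the others, so time cannot be told apart from the further dose or from the day. The methods give the times of T2 and T3 together for the same day. How far T2 was from ovulation, and so whether T2 and T3 differ in that time, is not stated there. The study kept 11 oocytes after quality control (5 of T1, 4 of T2 and 2 of T3). It did not keep T1.4 or, of T3, oocytes T3.1, T3.3 and T3.5, and its methods name few counts within genes as the ground for leaving samples out, with no ground stated per oocyte. T3.5, with 2366 genes above 1 count, was under the minimum of expressed genes that the methods state for the samples that remained, and the other 14 oocytes were above it. Total counts lay between 824854 and 4894970 in the 11 kept oocytes, and in the others T1.4 had 2874041, T3.1 had 620910, T3.3 had 271763 and T3.5 had 175263.

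OOSP2 encodes a secreted protein of the family that includes PLAC1, and its transcript is known from oocytes. A fully grown oocyte has largely stopped transcription and lives on stored messenger RNA, whose use and decay are controlled through the length of the poly-A tail. The libraries were made by Smart-seq2, which captures messenger RNA by that tail, so a level here is the number of reads from captured and amplified transcripts. In the RefSeq table of the assembly ARS-UCD2.0 OOSP2 is placed on chromosome 15, between TCN1 and MS4A3, with 1 coding and 1 non-coding transcript and with OOSP1 as a synonym. That table holds no other gene with an OOSP symbol. The counts were made on ARS-UCD1.2, so no coordinates are given.

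OOSP2 was detected in 15 of 15 oocytes and was among the most abundant transcripts in every one, but its share of the counts ranged from 0.19% to 18.8%. In T1 the share was 1.55% in T1.1, 0.364% in T1.2, 0.292% in T1.3, 0.316% in T1.4, 0.19% in T1.5 and 0.244% in T1.6. T1.1 thus stood 4.26 times above the next highest T1 oocyte, and the other 5 lay close together. In T2 it was 0.922% in T2.1, 0.254% in T2.2, 0.6% in T2.3 and 0.568% in T2.4. T2.2 was the low oocyte of this group, within the range of those 5 T1 oocytes. In T3 the share was 18.8% for T3.1, 0.384% for T3.2, 3.09% for T3.3, 0.454% for T3.4 and 0.409% for T3.5. Here 3 oocytes were alike, and T3.1 was 6.08 times higher than T3.3, the next highest. Counting error was small against these differences. The widest 95% Wilson interval relative to its share, in T3.5 with 717 OOSP2 counts, ran from 0.38% to 0.44%, and that of T3.1, with 116723 counts, from 18.7% to 18.9%. Reads without molecular identifiers are not independent molecules, and these intervals cover counting error only.

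**Figure D1:**
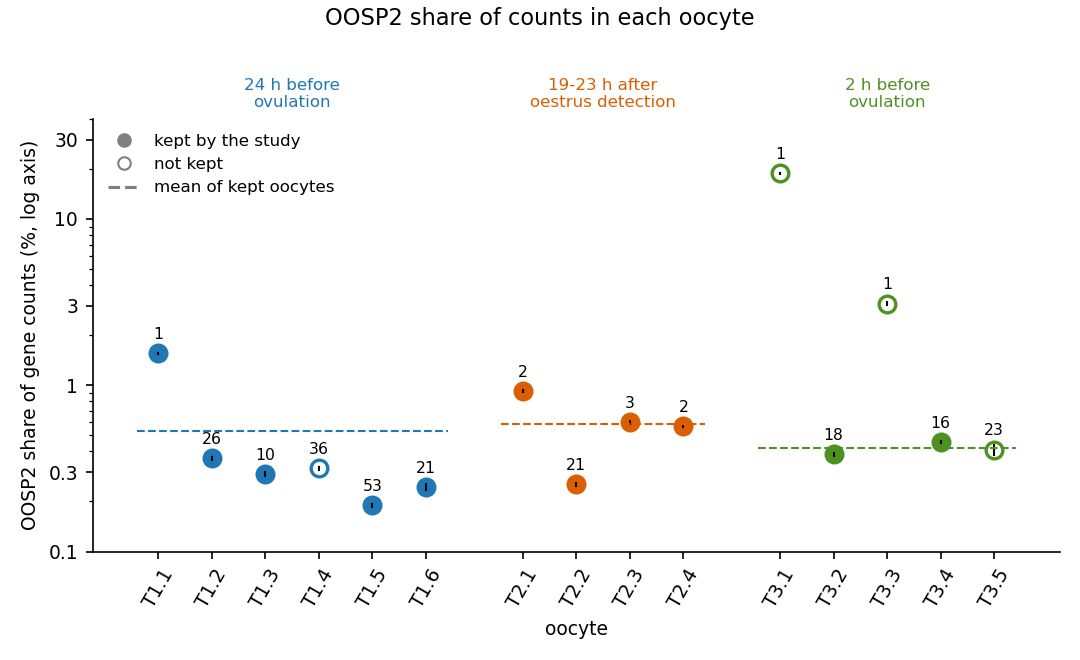
OOSP2 as a percentage of all gene counts (log axis) in each of the 15 oocytes by time point, with filled points for kept and open points for not kept oocytes, black bars for 95% Wilson intervals, dashed lines for the means of kept oocytes and the rank of OOSP2 by count above each point. T1.1, T3.1 and T3.3, at 1.55%, 18.8% and 3.09%, are the oocytes in which OOSP2 has rank 1.

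Averaged over the kept oocytes, T2 had a share of 0.586 ± 0.273% (SD, n = 4), T1 of 0.528 ± 0.576% (SD, n = 5) and T3 of 0.419 ± 0.0494% (SD, n = 2). In this order the groups overlapped, and neighbours differed by less than the SD of the more variable group. Both kept T3 oocytes lay inside the range of T2, and inside that of T1 only through T1.1. The place of T1 above T3 rested on T1.1, without which the T1 mean was 0.272 ± 0.0741% (SD, n = 4). All 4 of these remaining oocytes had at most 0.364%, a level that T2.1, T2.3, T2.4 and both kept T3 oocytes exceeded and T2.2 did not.

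Whether an oocyte had been kept did not sort the OOSP2 levels by itself. T1.4, which was not kept, had 0.316%, inside the range of the kept oocytes of its time point, and T3.5 had 0.409%, between the 2 kept oocytes T3.2 and T3.4. Only T3.1 and T3.3 of the 4 oocytes that were not kept lay above every kept oocyte. T3.3 was 6.8 times above T3.4, and T3.1 was 48.9 times above the median of the 11 kept oocytes, 0.384%. With all 5 T3 oocytes the mean was 4.63 ± 8.01% (SD, n = 5), an SD larger than the mean. T3.1 held 1.93% of all counts of the series and 41.5% of all OOSP2 counts.

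By number of reads OOSP2 had rank 1 in T1.1, T3.1 and T3.3, rank 2 in T2.1 and T2.4 and rank 3 in T2.3. It was among the 10 highest genes in 7 of 15 oocytes, and its lowest rank was 53, in T1.5. Only 1 other gene, ENSBTAG00000001575, for which no symbol was paired, stayed within the same 53 ranks in all 15 oocytes. Smart-seq2 reads cover whole transcripts, so longer transcripts collect more reads, and without gene lengths for this build these ranks are ranks of reads and not of molecules. Thinning every oocyte to 175263 counts left the median rank over the kept oocytes at 13, against 16 on the deposited counts, and left rank 1 in the same 3 oocytes.

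In T1.1 the gene next to OOSP2 was close, at 1.12% of the counts, and in T3.3 it was GSTM3, a glutathione transferase, at 2.54%. In T3.1 the next gene, ENSBTAG00000038488, held 3.65%, so OOSP2 had 5.15 times its reads. GSTM3 was among the 3 highest genes in 9 oocytes, with shares from 2.54% to 5.03% in T1.2, T1.4, T1.5 and all T3 oocytes except T3.1, where it held 0.00966%. COX6C, a subunit of cytochrome c oxidase, was at its lowest in the same oocyte, with 0.00725% against 0.022% to 1.39% in the other 14. EIF1AX, a translation initiation factor, held 0.0242% in T3.1 and 7.8% in T3.5. T1.1, the T1 oocyte with the highest OOSP2, had GSTM3 at 0.588% and COX6C at 0.293%, inside the range of the other kept T1 oocytes.

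**Figure D2:**
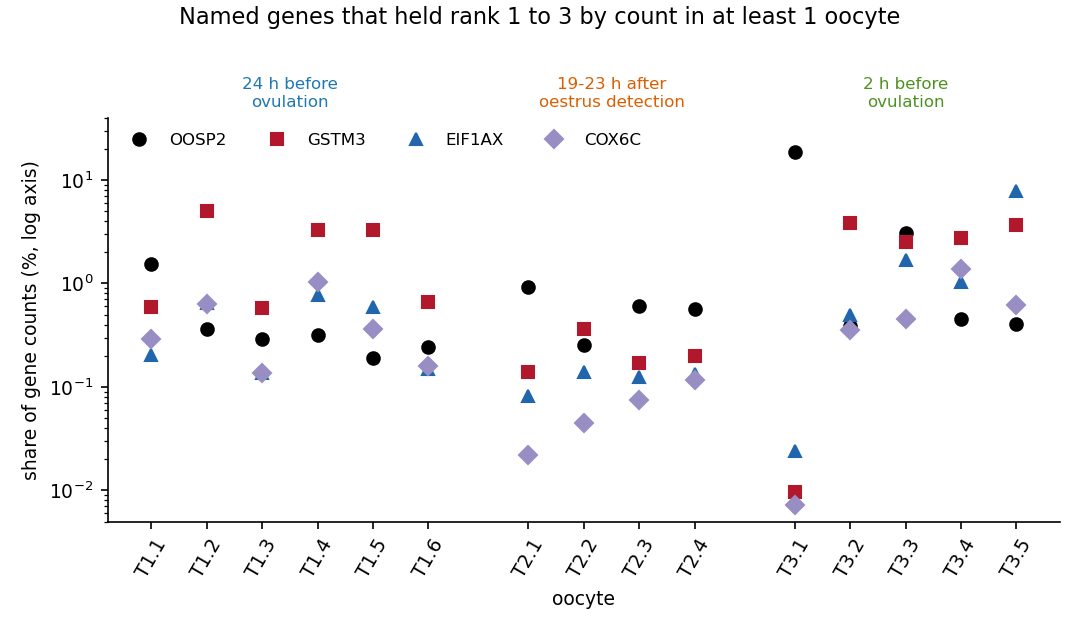
Shares of all gene counts (percent, log axis) of the 4 genes with a symbol that held rank 1 to 3 by count in at least 1 oocyte, for the 15 oocytes by time point. In T3.1 OOSP2 is at 18.8% while GSTM3, EIF1AX and COX6C are each under 0.03%.

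OOSP2 was not the only transcript far above its usual share in T3.1. In that oocyte 35 genes, OOSP2 among them, held at least 0.1% of the counts and at least 10 times their median share in the kept oocytes, limits set after the values were seen. Together they took 33.5% of the counts, and 14.7% without OOSP2. Of the 35, the only other gene with a symbol was ITGB1, the integrin beta 1 subunit, with 0.596% against a median of 0.0477%. The same limits gave 26 genes in T1.2, 23 in T3.5, 13 in T1.5, 11 in T3.3 and 1 in T1.1, and OOSP2 was not among them in any of these. These genes took 9.28% of the counts in T1.2, 23.7% in T3.5, 2.78% in T1.5, 3.47% in T3.3 and 0.11% in T1.1. The share in T3.5 was thus above that of T3.1 without OOSP2. T3.1 also had few genes, 4944 with a count above 1, and 4066 after thinning to 175263 counts, where the 11 kept oocytes had 5735 to 7590. The other oocytes that were not kept were below that range too, T1.4 with 5101, T3.3 with 4590 and T3.5 with 2366. Of these, T1.4 and T3.5 had OOSP2 shares of 0.316% and 0.409%, within the range of the kept oocytes. The part of library quality in the level of OOSP2 in T3.1 and T3.3 was not tested.

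A transcript with this share changes the values of all others where these are scaled by the library total alone. Leaving OOSP2 out of the library total would raise the CPM (counts scaled by the library total) of every other gene by 23.2% in T3.1, by 3.19% in T3.3, by 1.58% in T1.1 and by less than that in the other 12 oocytes. The TMM factor, by which edgeR multiplies the library total to make libraries comparable, moved from 0.888 to 1.07 in T3.1 when OOSP2 was left out. The total fell as the factor rose, so TMM-scaled values of the other genes changed less than their CPM. In the 11 kept oocytes, leaving OOSP2 out of totals and factors left its fitted T2 minus T1 log2 fold change at -0.08.

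On the log2 scale, TMM-scaled with a prior count of 2, the mean level of OOSP2 over the 11 kept oocytes was 12.09 ± 0.98 log2 CPM (SD), and 3 of the 10198 genes that passed the filter on low counts had a higher mean, by reads and not per length. Its spread between oocytes was ordinary for its abundance. Of the 23 genes with a mean within 1 log2 unit of that of OOSP2, 12 had a larger SD, and their median SD was 1.04. By group the level was 11.89 ± 1.35 log2 CPM (SD, n = 5) for T1, 12.27 ± 0.77 (SD, n = 4) for T2 and 12.25 ± 0.14 (SD, n = 2) for T3.

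In the edgeR quasi-likelihood fit over all genes, the log2 fold change of OOSP2 was -0.08 ± 0.67 (SE) for T2 minus T1, -0.22 ± 0.85 (SE) for T3 minus T1 and -0.15 ± 0.87 (SE) for T3 minus T2. Each was smaller than its SE. For T2 minus T1 and T3 minus T1 the sign differed from that of the log2 means. The sign for T2 minus T1 also depended on the scaling, with 0.15 for library size alone and 0.04 for upper-quartile factors. Without T1.1 the log2 fold change was 0.92 ± 0.49 (SE) for T2 minus T1 and 0.77 ± 0.58 (SE) for T3 minus T1. With all 15 oocytes, T3.1 included, it was 3.35 ± 0.86 (SE) for T3 minus T1 and 3.34 ± 1.01 (SE) for T3 minus T2.

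Genes of related roles were set beside OOSP2 where a symbol was paired. Only genes that the study called different between DF oocytes and oocytes from the sliced ovarian cortex carry a symbol here. A gene that could not be named may still have counts. Of 17 other oocyte-secreted and egg coat genes, among them the zona pellucida genes, GDF9 and BMP15, 0 could be named in the count table. Of 22 oocyte-restricted intracellular genes 5 could be named, and of 20 genes of messenger RNA storage and poly-A tail control another 5, so both lists are described only by these genes. Over the table of 10198 genes the quasi-likelihood test of edgeR called 0 genes (0%) in each of the 3 comparisons at an adjusted p under 0.05 and an absolute log2 fold change over 1.5, and 0 of the 9 listed genes tested. At an unadjusted p under 0.05 it had 1242 genes (12.2%) for T2 minus T1, 927 (9.09%) for T3 minus T1 and 1761 (17.3%) for T3 minus T2. Of the 9 listed genes 1, 0 and 2 had such a p (11.1%, 0% and 22.2%), so the listed genes were near the share of all genes. Their median log2 fold changes were -0.39, -0.24 and 0.15, and the medians over all genes were -0.2, -0.21 and -0.1. The likelihood ratio test of edgeR called 361, 139 and 701 of the same 10198 genes, so the number of calls depended on the test. DESeq2 called 466, 330 and 894 genes, but over 14321 genes, so tool and set of genes changed together.

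Of the oocyte-restricted genes, FIGLA encodes the transcription factor that activates zona pellucida genes. It had 71.7 CPM in T1.1, 3060 in T1.2, 731 in T1.3, 3510 in T1.4, 2650 in T1.5 and 565 in T1.6. It had 19.6 CPM in T2.1, 384 in T2.2, 446 in T2.3 and 234 in T2.4. It had 1020 CPM in T3.2, 1900 in T3.3, 2450 in T3.4, 508 in T3.5 and 1.61 in T3.1, where it rested on 1 count. FIGLA was therefore lowest in T3.1, T2.1 and T1.1, the oocytes in which OOSP2 was highest of their time points, while T3.3 was high for both. Over the 11 kept oocytes Spearman's rho between the 2 genes was -0.55, and -0.42 without T1.1. The points share libraries and scaling, and the values are given as a description. The log2 fold change of FIGLA was -2.75 ± 1.01 (SE) for T2 minus T1, with an adjusted p of 0.26 in the edgeR fit, and 3.0 ± 1.15 (SE) for T3 minus T2, with an adjusted p of 0.197.

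KPNA7, an importin alpha of oocytes, was highest in T2.1, with 1540 CPM, and T3.1, with 1310 CPM, and lay between 151 and 646 CPM in the other 13 oocytes. Its rho with OOSP2 over the kept oocytes was 0.12. NLRP5, a member of the subcortical maternal complex, and NOBOX, a homeobox regulator of oocyte genes, had counts in 14 of 15 oocytes and 0 in T3.1, where 3 counts, the limit that a count of 0 allows, correspond to 4.83 CPM. NLRP5 ranged from 15.8 to 168 CPM and NOBOX from 1.04 to 24.9 CPM in the others. GPR3, a receptor that helps to hold the oocyte in meiotic arrest, had counts in 9 of 15 oocytes, at most 3.73 CPM, and did not pass the filter.

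Of the genes of storage and tail control, CNOT6L, a catalytic subunit of the CCR4-NOT deadenylase, had a rho with OOSP2 of 0.64 over the kept oocytes and 0.52 without T1.1. It had 491 CPM in T1.1, 213 in T1.2, 322 in T1.3, 175 in T1.5 and 341 in T1.6, and from 227 to 375 CPM in the kept T2 and T3 oocytes. Its highest level was in T3.1, 791 CPM, and its lowest in T3.5, 22.8 CPM. T3.3, with the next highest OOSP2 share after T3.1, had 125 CPM, below every kept oocyte. PAN3, a subunit of the PAN2-PAN3 deadenylase, was also highest in T3.1, with 771 CPM against at most 279 CPM elsewhere. TUT7, which adds uridines to messenger RNA ends, had a rho of 0.65 with OOSP2, and 0.53 without T1.1, but only 11.3 CPM in T3.1. PATL2, a repressor of stored messages, and EIF4E1B, an oocyte cap-binding protein, had a rho of -0.59 and -0.43. No gene of this list had an adjusted p under 0.212 between time points in the edgeR fit.

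**Figure D3:**
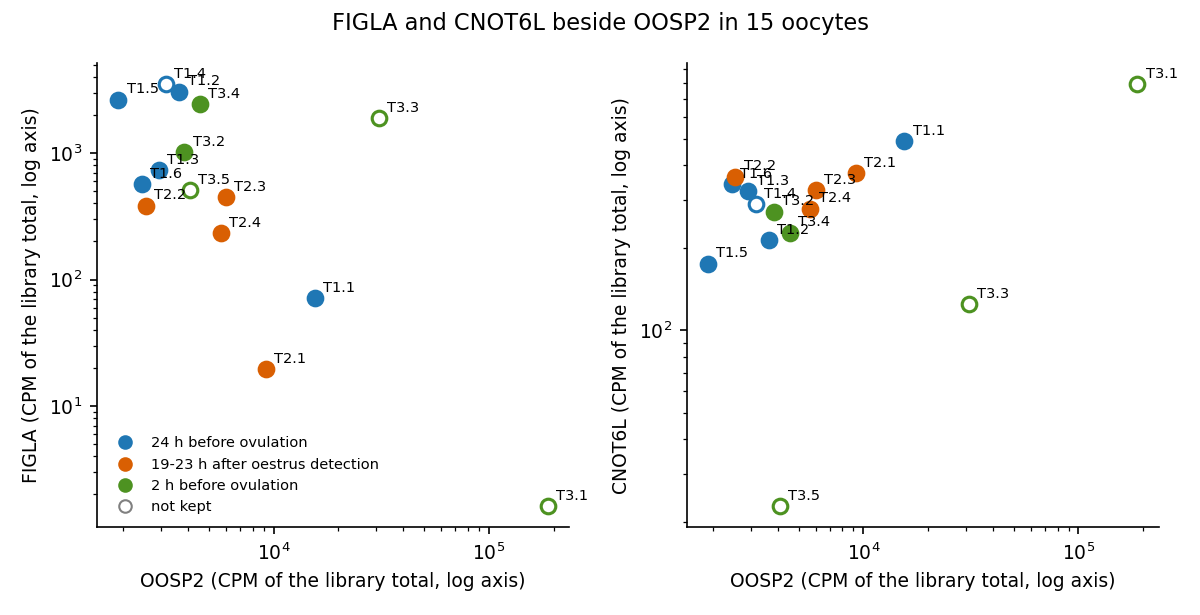
FIGLA (left) and CNOT6L (right) against OOSP2 in CPM of the library total (log axes), 1 point for each of the 15 oocytes, coloured by time point and open where the oocyte was not kept. T3.1 has the highest OOSP2 with FIGLA at 1.61 CPM and CNOT6L at 791 CPM, and T3.3 is high for OOSP2 with FIGLA at 1900 CPM and CNOT6L at 125 CPM.

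**Figure D4:**
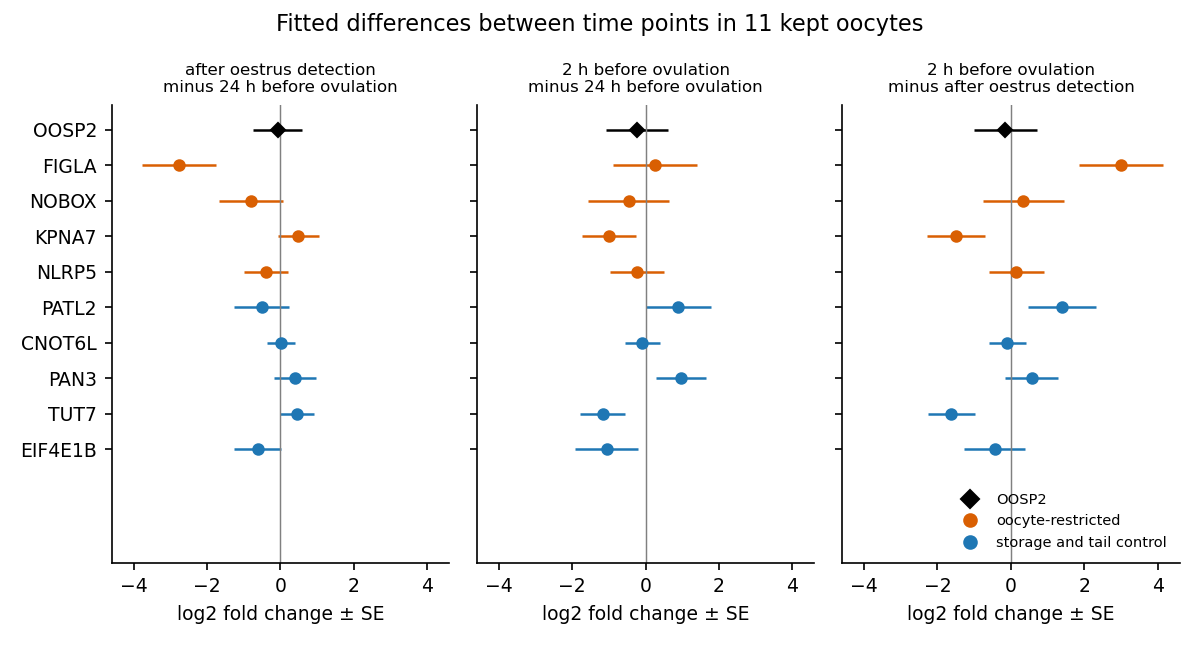
Log2 fold changes with SE between time points from the edgeR fit over the 11 kept oocytes for OOSP2 and the 9 listed genes tested. The bars of OOSP2 cross 0 in all 3 comparisons, and FIGLA lies at -2.75 and 3.0 in the comparisons with T2.

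Markers of other cells could hardly be checked. Of 20 cumulus and granulosa markers only STAR, which moves cholesterol into mitochondria, could be named, of 15 leukocyte markers only CSF1R, and of 7 erythrocyte markers none. STAR lay between 54.2 and 376 CPM in the kept oocytes, with a rho of -0.65 with OOSP2. In the others it was at 29 CPM in T3.1, 51.5 in T3.3, 22.8 in T3.5 and 130 in T1.4. CSF1R had at most 44.7 CPM in the kept oocytes, 66.2 in T3.3 and 0 counts in T1.4, T3.1 and T3.5. Of 10 oocyte markers FIGLA and NLRP5 could be named, and both had counts in all 11 kept oocytes. The part of other cells in the OOSP2 level was not tested.

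Among the 1663 genes with a symbol that passed the filter, the 5 whose order over the 11 kept oocytes was most like that of OOSP2 were TASOR, PFDN4, SAP30, SNRPE and NRAS. TASOR, a subunit of the HUSH silencing complex, had a rho of 0.91. PFDN4, a prefoldin subunit, SAP30, of the SIN3 histone deacetylase complex, and SNRPE, a core protein of the spliceosome, each had 0.88, and NRAS, a small GTPase, 0.85. SNRPE, for example, had 4470 CPM in T1.1 and 747 to 1150 CPM in the other kept T1 oocytes, and 1460 to 2970 CPM in T2. All 5 were highest of their group in T1.1. In T3.1 and T3.3, which were not kept, the 5 genes differed. PFDN4 and SAP30 were at 1140 and 312 CPM in T3.1 and at 1370 and 155 CPM in T3.3, above the other T3 oocytes. SNRPE was at 2960 CPM in T3.1, above the 782 to 1180 CPM of the other T3 oocytes, among them T3.3 with 1080 CPM. TASOR was at 485 and 1060 CPM and NRAS at 351 and 40.5 CPM. Over all 15 oocytes rho was 0.85 for PFDN4, 0.83 for SAP30, 0.74 for SNRPE, 0.54 for NRAS and 0.51 for TASOR.

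**Figure D5:**
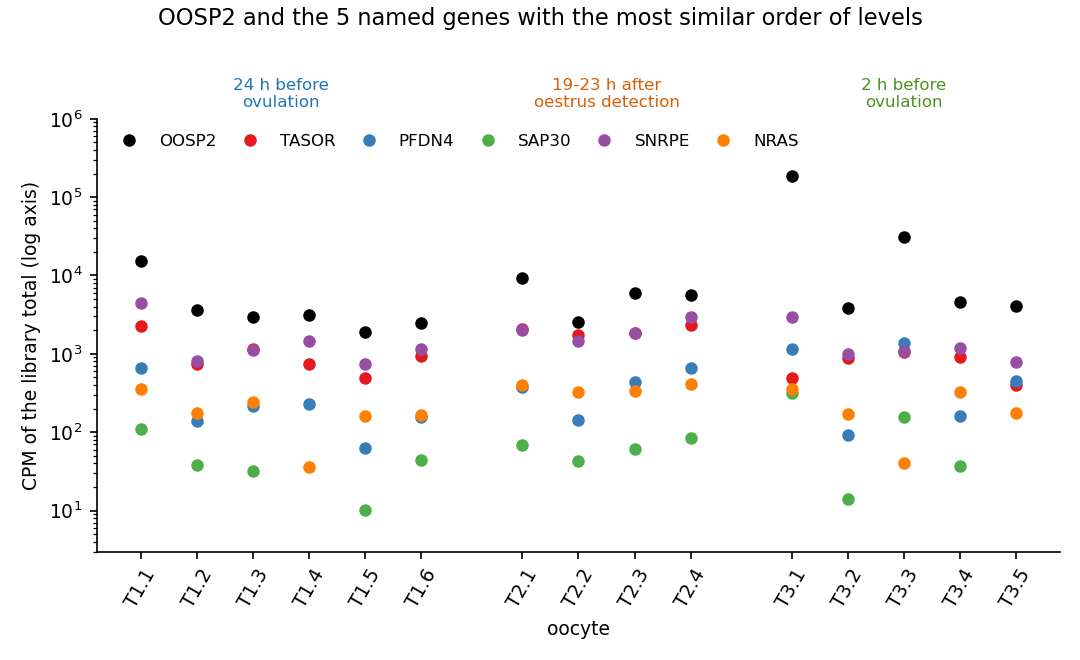
OOSP2 and the 5 genes with a symbol whose order over the 11 kept oocytes was most like it, in CPM of the library total (log axis), for the 15 oocytes by time point; zero values are not drawn. PFDN4 and SAP30 are above the other T3 oocytes in both T3.1 and T3.3, as OOSP2 is.

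The 5 genes least like OOSP2 were KIAA1217, with a rho of -0.88, CRY2, a repressor of the circadian clock, with -0.86, CIAPIN1, which takes part in iron-sulphur cluster assembly, with -0.81, RAB3A, a GTPase of vesicle release, with -0.81, and MIF4GD, with -0.80. Some had few reads. CRY2 had 0 counts in 5 of the 11 kept oocytes and RAB3A had 0 in T1.1. CIAPIN1 was at 144 CPM in T1.5, the oocyte with the lowest OOSP2 share, and at 18.1 CPM in T1.1, though T1.2 was lower still with 7.06 CPM. Across 1663 genes and 11 oocytes, 107 genes had a rho of at least 0.6 and 117 of -0.6 or less, so neither end stands alone. The genes compared all come from the study's set of genes that differed between DF and cortex oocytes, and not from all genes.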

How the data were processed

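Smart-seq2 libraries of 15 single DF oocytes were used. Reads were trimmed with Trim Galore (0.6.6 in the submitters' processing notes) and mapped to ARS-UCD1.2 with HISAT2, and the authors deposited raw counts per Ensembl gene, quantified in SeqMonk, without normalization. Annotation release, strandedness and any removal of duplicates: not given in the sources used here. Total counts ranged from 175263 to 4894970. Time points were taken from the labels; titles of the T2 samples say before ovulation, while their other labels say after oestrus detection, which is used. The trial of each oocyte is not given in the sources used here.

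Shares are OOSP2 counts over all gene counts. Time points were compared in 1 fit of the 11 kept oocytes with edgeR 4.0.16 (R 4.3.3; TMM, filterByExpr, quasi-likelihood F-test, Benjamini-Hochberg adjustment over 10198 genes), and an SE is the absolute log2 fold change over the root of F. DESeq2 1.42.0 was an alternative. In a test on simulated data 200 of 10198 genes were changed by 4 log2 units. At a dispersion of 0.1, 93% to 96.5% were called over the 3 comparisons. At a dispersion of 0.8 these were 56% (T2 minus T1), 18% (T3 minus T1) and 13.5% (T3 minus T2). Both dispersions were set in advance and that of the oocytes is not given here, so the simulation does not show what share of changed genes the fit to the oocytes would call. Symbols came from the study's pairing of 1741 of 1829 identifiers. These are the genes that the study called different between DF oocytes and oocytes retrieved by slicing the ovarian cortex. They were thus chosen in part on these oocytes, and genes outside that set could not be named. The genes named were OOSP2, the listed genes with a symbol, the 5 most and 5 least similar genes with a symbol and those of rank 1 to 3 in any oocyte. ITGB1, ENSBTAG00000001575, ENSBTAG00000048761 and TCN1 were named after their values or position were seen. The gene, the lists and the tests were chosen with earlier results of these data known. Coding lengths and sequences were not used here. Levels used Python 3.11.15.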

Additional observations from a re-analysis of the deposited data

Results flagged for a closer look

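Over 12 combinations of time point, set of oocytes and measure, 5 had an oocyte at the end of its group with a gap large against the range of the group (Dixon's criterion, which marks about 1 in 20 groups by chance). As OOSP2 was chosen by these shares and ranks, and T1.1 counts in both the kept and the full T1 group, the gaps are a description and not a test. The OOSP2 share of T1.1, 1.55%, had a gap of 0.872 of the range, both among the 5 kept oocytes and among all 6 of T1. The OOSP2 share of T3.1, 18.8%, had a gap of 0.853 of the range among the 5 T3 oocytes. The rank of OOSP2 in T2.2 was 21 against 2 or 3 in the other T2 oocytes. The share held by the 10 highest genes other than OOSP2 was 27.4% in T3.5, against 11.3% to 14.1% in the other T3 oocytes. What sets these oocytes apart was not tested.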

How the results depend on the processing

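The mean OOSP2 share per time point stayed within 1 SD of its value in 27 of 29 alternatives. The exceptions were in T3, with 0.489% on TMM-scaled libraries and 4.63% with all 15 oocytes. The alternatives with 1 oocyte left out could not be exceptions, since leaving out 1 value moves a mean by less than 1 SD. The SD used for T1, 0.576%, was also wide because of T1.1, and was 0.0741% without that oocyte. With each oocyte left out the mean ranged from 0.272% to 0.613% in T1, from 0.474% to 0.697% in T2 and from 0.384% to 0.454% in T3. The fitted log2 fold changes of OOSP2 moved beyond the SD between oocytes only with all 15 oocytes, to 3.35 (T3 minus T1) and 3.34 (T3 minus T2). With each oocyte left out they ranged from -0.33 to 0.92, from -0.46 to 0.77 and from -0.40 to 0.05 for T2 minus T1, T3 minus T1 and T3 minus T2. Ranks moved little with depth or with all 15 oocytes, and the alternative per coding length was not run, since no lengths were used here.

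Numbers of genes called depended on the test and the filter. The DESeq2 fits were over 14321 genes, so there tool and set of genes changed together. For T2 minus T1 they were 0, and 234 without a filter, 158 with at least 10 counts in every oocyte, 361 by the likelihood ratio test and 466 by DESeq2, and 0 to 376 with each oocyte left out, the most without T1.1. For T3 minus T1 they were 0, and 1 without a filter, 139 by the likelihood ratio test and 330 by DESeq2, and 0 to 15 with each oocyte left out, 15 without T1.2. For T3 minus T2 they were 0, and 17 with RLE factors, 59 with library size alone, 371 without a filter, 214 with at least 10 counts in every oocyte, 701 by the likelihood ratio test and 894 by DESeq2, and 0 to 403 with each oocyte left out, with 403 without T1.2, 316 without T1.1 and 94 without T3.2. Where 1 oocyte was left in T3, its spread was taken from T1 and T2. Removing OOSP2 from the table left 0 calls in each comparison. Filters alter the set of genes tested. The cause was not tested for the other settings.

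The numbers in the library names mark different animals and do not pair oocytes. Deviations of same-numbered oocytes from their group means correlated between -0.02 and 0.14 over 6 pairs, and only 1 pair was over 0.1. With the number as a replicate block the calls were 0, 0 and 1, and the fitted changes of OOSP2 were -0.26, -0.02 and 0.23.

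The most and least similar genes were unstable. Of the 5 most similar, 1 remained in the first 5 by Pearson's r, 1 with library size alone and OOSP2 left out of the totals (both changed together), 2 with all 15 oocytes and 1 to 5 with each oocyte left out, 1 of them without T2.2. Of the 5 least similar, under the same settings in the same order, 2, 2, 1 and 1 to 4 remained, 1 of them without T1.6. The listed secreted genes gave no value, as none could be named.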

Other observations

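TCN1, a vitamin B12-binding protein and the neighbour of OOSP2 on chromosome 15 in the RefSeq table, did not share its pattern. It had 115 CPM in T1.5, 56 in T1.4, 55.8 in T3.4 and 16.6 in T1.2, at most 4.85 CPM in 5 others, and 0 counts in 6. The oocytes with 0 counts were T1.1, T2.1, T3.1 and T3.3, which had the highest OOSP2 shares of the series, and T2.2 and T3.5. A count of 0 allows up to 11.0 CPM in T3.3 and 17.1 CPM in T3.5, and less than 5 CPM in the other 4. Its rho with OOSP2 over the 11 kept oocytes was -0.54. In the edgeR fit its log2 fold change was -5.59 ± 1.85 (SE) for T2 minus T1 (adjusted p = 0.199), 0.10 ± 1.71 (SE) for T3 minus T1 (adjusted p = 0.995) and 5.68 ± 1.98 (SE) for T3 minus T2 (adjusted p = 0.155). Only 3 kept oocytes, T1.2, T1.5 and T3.4, had more than 5 CPM.

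The OOSP2 share went with a smaller number of genes detected. Over the 11 kept oocytes Spearman's rho between the share and the number of genes with a count above 1 was -0.52, and -0.56 after thinning to 175263 counts, and over all 15 it was -0.56 and -0.57. The points share libraries, and the values are a description.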
